A study of Mus musculus with 3 samples.

Results

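Red cell barcodes were droplet barcodes with fewer than 200 detected genes in which genes named Hba- or Hbb-, the alpha and beta globins, held more than 50% of the UMIs (unique molecular identifiers, 1 for each RNA molecule that was caught). They were chosen by their measured gene number and globin share, so those values are given here as a description. No limit on mitochondrial UMIs was applied. The rule took 10213 of 44212 barcodes, which were 941 of 10842 for young mice, 5460 of 16038 for aged mice and 3812 of 17332 for aged-GA mice.

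The libraries were 10x 3′ single-cell libraries of PBMCs, the mononuclear cells of blood, with 1 library per group. Young mice were 8 weeks old and labelled as untreated, aged mice were 16 months old and labelled as untreated, and aged-GA mice were 16 months old and received glycyrrhizic acid (GA), a compound of licorice root, for 1 month. According to the methods, all were female C57BL/6 mice, GA was injected into the tail vein, and the control group received PBS. Young mice were bought and aged mice came from reserves reared in the laboratory, so age and origin cannot be told apart. The libraries held 58894294, 82260961 and 98155671 UMIs, in the order young, aged and aged-GA, which is kept throughout. The study describes several mice per group behind each single library, with no map from cells to mice in the files used here, so each group was 1 sample. A difference between groups therefore cannot be told apart from a difference between libraries, no test was run, and all intervals are 95% intervals that cover counting error only.

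Red cells pack their cytoplasm with haemoglobin, a tetramer of alpha and beta globin chains that each hold a haem group. The last nucleated precursor expels its nucleus, and the resulting reticulocyte circulates while its remaining RNA, ribosomes and mitochondria are broken down. A mature erythrocyte makes no new RNA, so the transcripts found in a circulating red cell are those that outlast this clearance.

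The alpha globin genes Hba-a1 (chr11:32283511-32284465) and Hba-a2 (chr11:32296489-32297298) lie on the plus strand of chromosome 11 in build GRCm38. The beta globin genes Hbb-bs (chr7:103826534-103828096) and Hbb-bt (chr7:103812524-103813996) lie on the minus strand of chromosome 7, and Alas2, the erythroid enzyme that starts haem synthesis, lies on the X chromosome. Their promoters are shown because these 3 genes carry the globin balance and the largest non-globin ratio described below. Each run is 300 bases of RefSeq sequence (build GRCm38.p6, which is mm10), from 250 bases before to 50 after the start, read 5′ to 3′ on the gene's strand. Capitals mark matches on either strand to AGATAA (the letters of a GATA motif), CCNCNCCC (a CACCC-type motif of KLF factors) and TATAAA.
Hbb-bs, chr7:103827879-103828178, minus strand: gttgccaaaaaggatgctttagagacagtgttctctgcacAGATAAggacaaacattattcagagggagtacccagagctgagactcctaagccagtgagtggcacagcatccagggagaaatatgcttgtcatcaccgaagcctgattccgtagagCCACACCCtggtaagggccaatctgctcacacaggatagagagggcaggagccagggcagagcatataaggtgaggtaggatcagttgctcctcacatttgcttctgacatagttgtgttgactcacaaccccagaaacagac
Hbb-bt, chr7:103813874-103814173, minus strand: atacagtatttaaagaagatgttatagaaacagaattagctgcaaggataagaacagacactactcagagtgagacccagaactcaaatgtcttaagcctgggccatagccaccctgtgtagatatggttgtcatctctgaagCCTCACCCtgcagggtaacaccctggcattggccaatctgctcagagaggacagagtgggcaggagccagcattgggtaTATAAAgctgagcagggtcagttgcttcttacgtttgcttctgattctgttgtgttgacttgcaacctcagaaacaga
Alas2, chrX:150547167-150547466, plus strand: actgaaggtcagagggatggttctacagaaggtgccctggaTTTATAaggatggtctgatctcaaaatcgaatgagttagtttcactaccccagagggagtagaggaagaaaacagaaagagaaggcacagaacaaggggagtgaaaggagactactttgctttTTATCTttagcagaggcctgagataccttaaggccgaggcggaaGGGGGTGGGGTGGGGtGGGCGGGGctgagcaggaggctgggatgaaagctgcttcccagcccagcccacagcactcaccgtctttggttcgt
Hbb-bs held 1 AGATAA and 1 CCNCNCCC match, and Hbb-bt held 1 CCNCNCCC and 1 TATAAA match. Alas2 held 1 AGATAA match, 1 TATAAA match and 4 matches of CCNCNCCC, of which 3 overlapped. Among 27025 mouse promoters of this length, 11.4% held AGATAA, 49.1% CCNCNCCC and 14.2% TATAAA, so each of these letter strings is common. Of the 4 adult globins and the 10 genes with the highest ratio to other barcodes, 12 had a promoter in the table. Hba-a1, Hba-a2, Isg20 and Apol11b held none of the 3 motifs. Of the 8 genes with a promoter among the 10, 1 held AGATAA, 6 CCNCNCCC and 1 TATAAA.

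Red cell barcodes made up 8.68% of the young library (exact binomial interval, 8.16 to 9.22), 34.0% of the aged library (33.3 to 34.8) and 22.0% of the aged-GA library (21.4 to 22.6). They held 12.9%, 33.9% and 20.3% of all UMIs of their libraries. The median red cell barcode had 8636, 4955 and 5387 UMIs, with 143, 113 and 129 genes. The young library thus had the fewest red cell barcodes and the deepest ones. Median globin content was 95.01%, 96.06% and 95.40%, and the lowest in any red cell barcode was 74.4%, in aged-GA mice. Mitochondrial UMIs exceeded 7.5% in 0, 0 and 1 of them. Barcode sequences shared between libraries were few, 52 between young and aged, 50 between young and aged-GA and 62 between aged and aged-GA, and 2, 3 and 5 of these were red cell barcodes in both libraries. Without all shared barcodes the shares were 8.63%, 34.1% and 22.0%. No doublet caller was run.

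Of all barcodes over 50% globin, 66.6%, 88.3% and 72.1% fell under 200 genes. Members just inside and barcodes just outside the gene limit were alike in red cell genes. Barcodes of 190 to 199 genes had red cell genes (105 genes of 6 lists, described below) at 44.4%, 31.7% and 32.2% of non-globin UMIs, and those of 200 to 209 genes had 44.0%, 30.5% and 32.4%. The globin limit fell in an empty range, with no barcode under 200 genes between 40% and 50% globin and 1 between 50% and 75%. The remaining globin-rich barcodes, 471, 721 and 1474, had 200 or more genes. The 9400, 9851 and 12006 barcodes with 200 or more genes and at most 50% globin are here called other barcodes. Both sets are used below for comparison. The globin-rich set was mixed, with median gene numbers of 247, 1142 and 255 and upper quartiles of 961, 1396 and 1260.5. Leukocyte genes (64 genes, described below) held 1.54%, 4.88% and 3.43% of its non-globin UMIs, so ratios to this set also reflect that content.

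**Figure D1:**
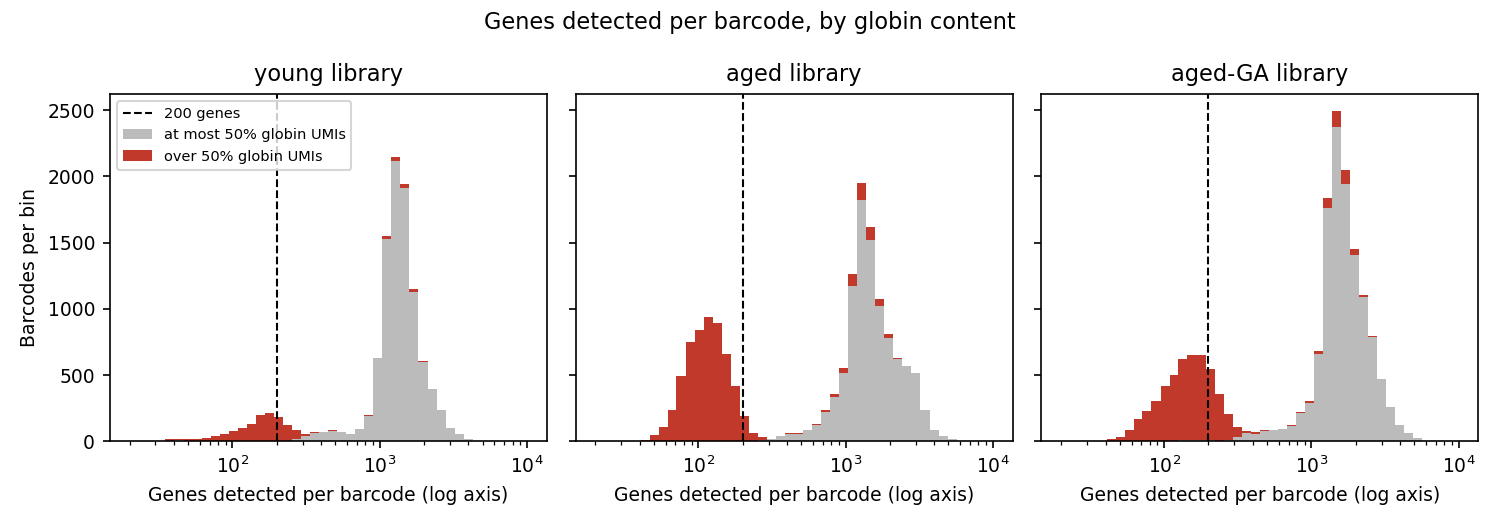
Number of barcodes (y axis) by genes detected per barcode (x axis, log scale) in each library, with barcodes over 50% globin UMIs in red stacked on all others in grey and a dashed line at 200 genes. Red cell barcodes form the red population left of the line, 941, 5460 and 3812 barcodes in young, aged and aged-GA mice, and its right edge crosses the line.

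All 4 adult globins were found in 100% of red cell barcodes of each library. Hbb-bs was the most abundant, at 51.6%, 52.9% and 52.3% of all UMIs of red cell barcodes. Hbb-bt held 12.8%, 10.6% and 9.51%, Hba-a1 16.8%, 18.4% and 19.1%, and Hba-a2 13.7%, 13.9% and 14.4%. These are shares of 3′ UMIs, which are not divided by transcript length. Alpha genes together made up 32.2%, 33.7% and 35.1% of adult globin UMIs. The Hba-a1 and Hba-a2 transcripts differ at 1 of 538 aligned bases, so their split is uncertain, while Hbb-bs and Hbb-bt differ at 43 of 621. Whether these 43 lie in the 3′ stretch that was read was not checked.

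Embryonic globins were at trace levels. Hbb-bh1, of the primitive red cells of the embryo, had 12, 30 and 18 UMIs, Hbb-y had 1, 7 and 6, Hba-x had 2, 10 and 2, and Hbb-bh2 had 1 in each library. The theta globins Hbq1a and Hbq1b, alpha-like genes whose names the rule does not cover, were more frequent, with Hbq1a at 752, 363 and 324 and Hbq1b at 654, 393 and 376 CPM, which here means counts of UMIs per 1000000 non-globin UMIs. In other barcodes neither theta gene exceeded 0.622 CPM.

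The balance of the beta genes differed between libraries and, more widely, between barcodes. Hbb-bt made up 19.9%, 16.7% and 15.4% of beta globin UMIs in red cell barcodes. Over single barcodes the standard deviation of this share was 5.40, 5.23 and 6.27 percentage points, where counting error alone gives 0.67, 0.69 and 0.71. Of the red cell barcodes, 3.40%, 4.56% and 13.5% had under 5% Hbb-bt, and 43.7%, 21.1% and 11.8% had 20% to 25%. At 25% or more the shares were 8.08%, 1.08% and 1.55%. Aged-GA mice thus had the largest share under 5%, and young mice had the largest in both bands from 20%.

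Red cell barcodes with little Hbb-bt were shallower and held a smaller share of red cell genes. Those under 5% Hbb-bt had medians of 2394, 2789 and 2276 UMIs, and those of 20% to 25% had 9419, 5938 and 6840. The 105 red cell genes held 18.2% of non-globin UMIs in the lower of these bands and 43.2% in the higher in young mice, 11.99% and 31.3% in aged mice, and 10.8% and 36.0% in aged-GA mice. Leukocyte genes had 0.25 and 0.625 UMIs per barcode in these bands in young mice, 2.90 and 2.91 in aged mice and 3.42 and 2.96 in aged-GA mice, and 0.645, 2.22 and 2.75 in the 3 libraries at 25% Hbb-bt or more.

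Single red cell genes did not all follow the balance. Barcodes of at least 20% Hbb-bt were compared with those under 10% for 209 genes with 100 or more UMIs over both bands in each library, whose median log2 ratios were 0.28, 0.79 and 1.02. Of all 209 genes 119, 129 and 135 had a ratio above 0, and of 43 red cell genes among them 39, 41 and 42, with medians of 0.96, 1.51 and 1.77. Genes could pass the minimum mainly through the high band, which by itself favours high ratios. Trim10, for example, had 1, 4 and 10 UMIs in the low band and 252, 195 and 93 in the high band. Prdx2, an abundant red cell peroxidase, had log2 ratios of 2.57, 2.75 and 2.57, and Glrx5, the mitochondrial glutaredoxin of iron-sulphur cluster assembly, 3.71, 3.26 and 3.05, the first of these from 4 UMIs in the low band. Slc4a1, the band 3 anion exchanger, had 0.70, 3.73 and 3.13 on low-band counts of only 6, 7 and 11 UMIs. Bpgm, which makes 2,3-bisphosphoglycerate, had 1.08, 1.72 and 2.29. Alas2 had 0.04, 0.06 and 0.56, and Ube2l6, the ISG15-conjugating enzyme, -0.25, -0.05 and 0.35, so their ratios were near 0 in young and aged mice for these wide bands. Between the bands under 5% and 20% to 25%, Alas2 differed more, at 2.48% and 3.77% of non-globin UMIs in young, 2.42% and 3.30% in aged, and 2.16% and 4.47% in aged-GA mice. As shares, ribosomal protein genes went the other way, with medians of -1.24, -0.84 and -1.04 and 0 of 55 above 0 in each library. Their UMIs per barcode did not fall. Under 5% and at 20% to 25% Hbb-bt they were 19.97 and 27.9 in young, 21.4 and 24.3 in aged, and 26.1 and 30.8 in aged-GA mice. Depth moved with Hbb-bt in all 3 libraries, and its part in these differences was not tested.

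**Figure D2:**
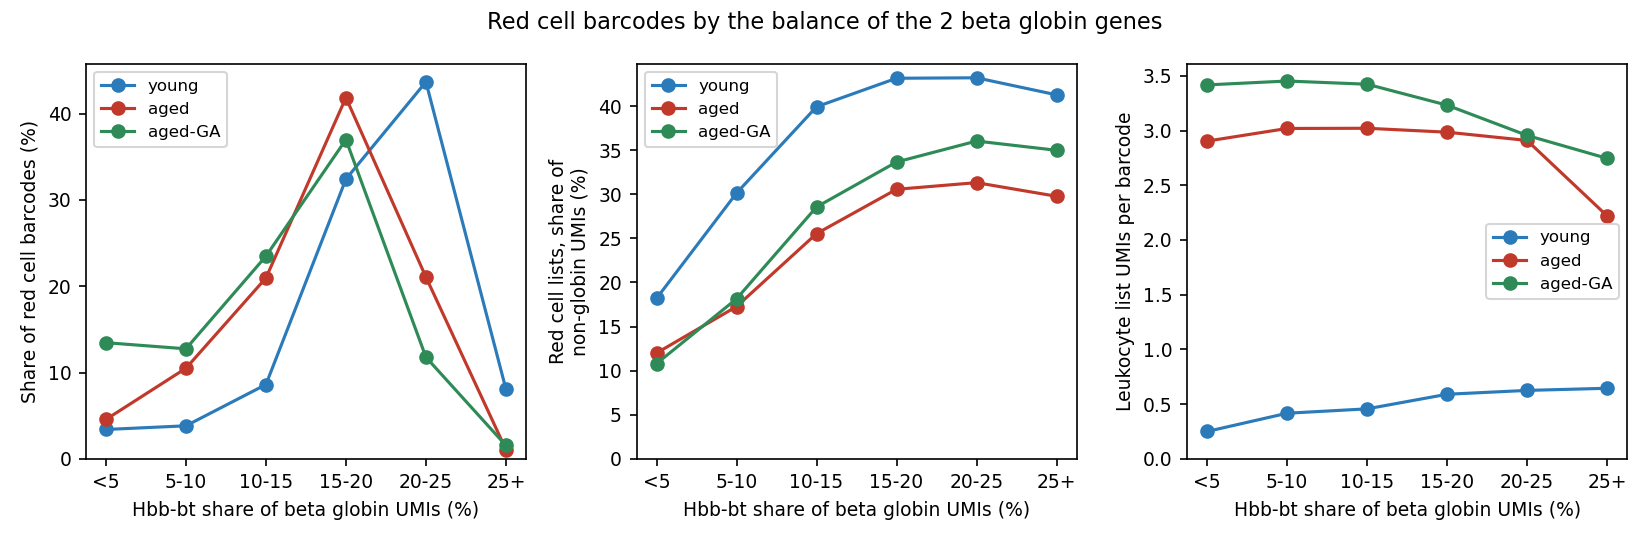
Red cell barcodes of each library (colours) in bands of the Hbb-bt share of their beta globin UMIs (x axis, percent), showing the share of red cell barcodes in each band (left, percent), the red cell lists as a share of non-globin UMIs (middle, percent) and the leukocyte list UMIs per barcode (right). The young library peaks at 20% to 25% and the others at 15% to 20%, and the red cell share is lowest under 5% in every library.

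Beside globin, red cell barcodes held 377901, 1151827 and 940655 UMIs, which were 4.98%, 4.13% and 4.73% of their UMIs, with medians of 413, 195 and 235 per barcode. All shares and levels below are of these non-globin UMIs unless stated. They came from 5593, 11404 and 11100 genes, yet the 15 most abundant held 46.6%, 39.5% and 39.8%, and 14 genes were among the top 15 in all 3 libraries. They included Gm42418, Alas2, Bpgm, Ubb, Mkrn1, Ftl1, AY036118, Oaz1, Sec61g, Fth1, Ube2l6, Bnip3l and Tpt1. Among them Oaz1 restrains polyamine synthesis, Sec61g is a subunit of the protein channel of the endoplasmic reticulum, and Tpt1 is a growth-related protein found in nearly all cells. Gpx1 completed the list in young mice, and Tent5c did so in aged and aged-GA mice.

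The 6 red cell lists (haem synthesis, iron handling, membrane and skeleton, transcription factors, clearance, and metabolism) made up 42.4% of non-globin UMIs in young (42.2 to 42.5), 28.6% in aged (28.5 to 28.6) and 30.002% in aged-GA mice (29.9 to 30.1). In other barcodes they made up 1.16%, 1.39% and 1.24%. Of 1320 genes with enough UMIs, 17.9% were at least 2-fold higher in red cell than in other barcodes in all 3 libraries and 47.4% at least 2-fold lower, with a median log2 ratio of -1.18. The minimum of 100 UMIs counted red cell barcodes only, which favours high ratios among the genes that passed. Of 63 red cell genes among the 1320, 56 were higher and 2 lower, with a median of 4.46. Since the barcodes were chosen on globin, this is a description of what accompanies it. Against globin-rich barcodes of 200 or more genes, 6.59% of genes were at least 2-fold higher in all 3 libraries and 32.5% lower, and of the 63 red cell genes 25 were higher and 2 lower.

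**Figure D3:**
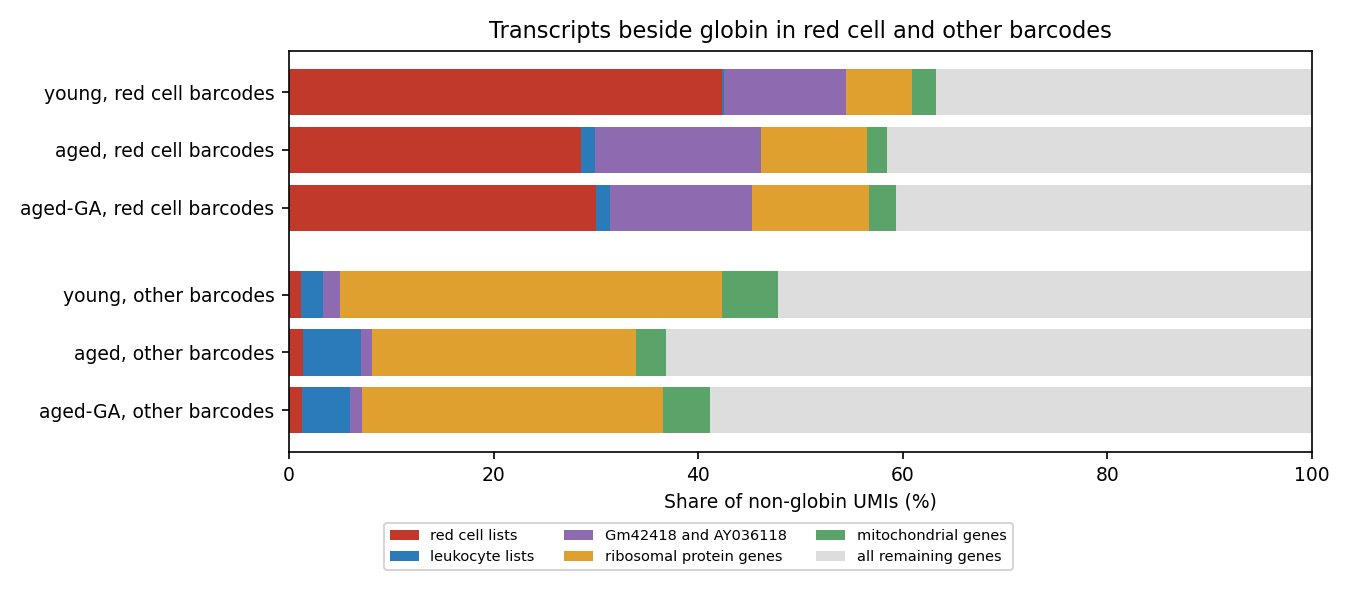
Composition of non-globin UMIs (x axis, percent) in red cell barcodes (upper 3 bars) and other barcodes (lower 3 bars) of each library, with gene groups as coloured segments. The red segment of red cell lists spans 42.4%, 28.6% and 30.002% in red cell barcodes and under 2% in other barcodes.

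Haem synthesis was carried almost wholly by its first and last steps. The list of 8 enzymes held 4.28%, 3.84% and 4.83% of non-globin UMIs, against 0.00904%, 0.0153% and 0.0158% in other barcodes. Alas2 had 37049, 33809 and 43171 CPM in red cell barcodes and 12.8, 53.9 and 63.2 in other barcodes, which gave the largest median log2 ratio of the 1320 genes (9.20). Fech, which inserts iron into the porphyrin ring, had 5314, 4315 and 4931 CPM (median log2 ratio 7.18). The intermediate enzymes were sparse. Urod had 104, 171 and 83 UMIs, and Alad, Uros, Cpox and Ppox had at most 19 in any library.

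With each barcode thinned to 500 UMIs, Alas2 was seen in 55.4%, 49.0% and 58.9% of red cell barcodes and in 0.277%, 1.57% and 1.76% of other barcodes, and no barcode was too shallow to thin. Without thinning it was seen in 97.1% of young red cell barcodes, at a median of 8636 UMIs. The thinned shares of red cell barcodes ranked the libraries as the CPM did.

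Of 15 iron genes, the ferritin chains led. Ftl1, the light chain, had 30254, 20507 and 25982 CPM, and Fth1, the heavy chain, 16073, 10992 and 11117. Both were also abundant in other barcodes, where Fth1 had 2140, 2992 and 2606. The mitochondrial carriers Slc25a39, a glutathione transporter, and Slc25a37 (mitoferrin 1) were low outside globin-rich barcodes. They stood at 6266, 4133 and 4905 and at 4274, 5196 and 4458 CPM, with median log2 ratios to other barcodes of 6.94 and 6.38. Genes that bring iron into the precursor were nearly gone. Tfrc, the transferrin receptor, had 10, 27 and 17 UMIs, Steap3 had 0, 0 and 1, and Tfr2 had 0 in all 3 libraries.

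The membrane and skeleton list of 21 genes held 1.36%, 1.30% and 0.929% of non-globin UMIs. Epb41 (protein 4.1) led with 6539, 9322 and 6311 CPM. Slc4a1 had 971, 794 and 520. These levels are far under those of Alas2, but 3′ UMI counts of different genes were not scaled for length or capture, so no ranking of protein parts is drawn. Rhag had 6, 9 and 5 UMIs and Aqp1, the water channel, 2, 11 and 3.

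The clearance list of 23 genes, which cover the ubiquitin system and autophagy, was the largest, at 15.9%, 10.3% and 10.5% of non-globin UMIs. Ubb, which encodes ubiquitin, had 51193, 20993 and 25338 CPM. Mkrn1, an E3 ubiquitin ligase, had 35716, 25306 and 23697. Bnip3l, also called Nix, the receptor that removes mitochondria from reticulocytes, had 12120, 11240 and 10227, and Ube2l6 had 14324, 13654 and 14962. The autophagosome proteins Gabarapl2, at 10410, 7402 and 6889, and Map1lc3b, at 7989, 5345 and 5073, followed.

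In the list of 27 red cell metabolism and survival genes, at 14.4%, 8.56% and 8.73%, Bpgm came first. Its product lowers the oxygen affinity of haemoglobin, and it had 54464, 21028 and 27854 CPM against 31.8, 45.97 and 61.2 in other barcodes. Of the antioxidant genes, Gpx1 had 12337, 9549 and 6663, Prdx2 8246, 4588 and 3625, and Cat 1339, 1097 and 1064. Car2, carbonic anhydrase II, had 4671, 1538 and 1366, whereas Car1 had 0, 5 and 0 UMIs and Pklr, the red cell pyruvate kinase, 0 in each library. Tent5c, a poly(A) polymerase, had 8066, 10616 and 8665 CPM, and Apol11b, which stands on no list, 1479, 2291 and 2239 against at most 3.88 in other barcodes.

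**Figure D4:**
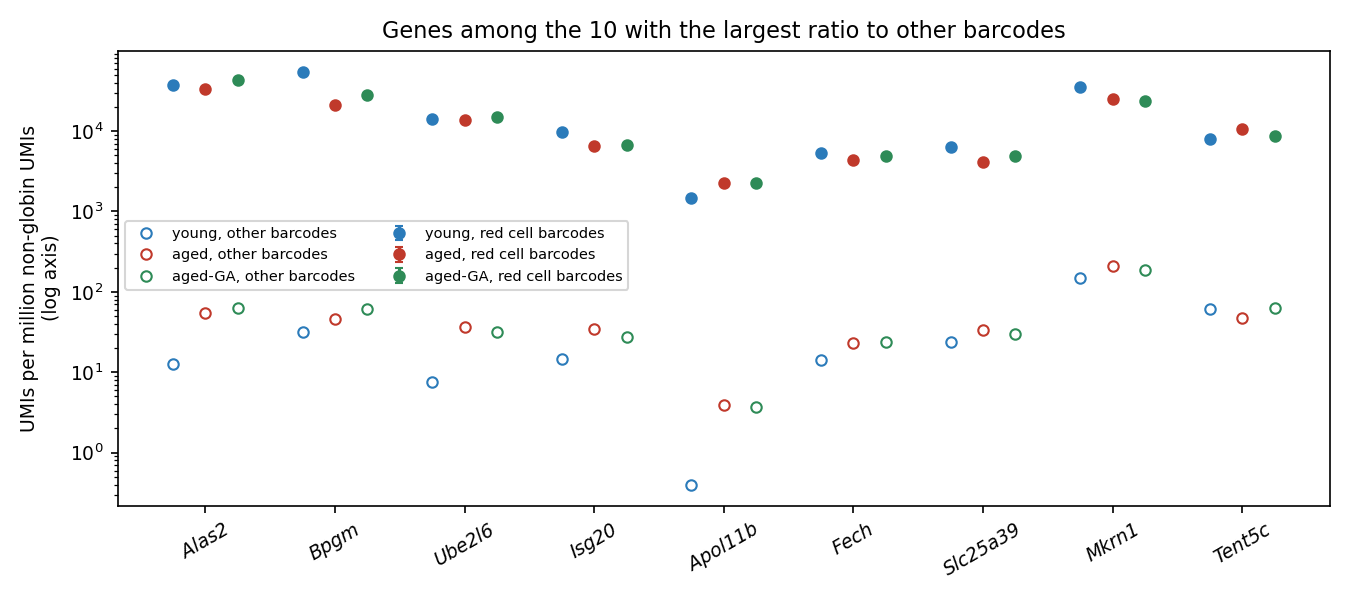
CPM (y axis, log scale) of 9 of the 10 genes with the largest median log2 ratio to other barcodes, in red cell barcodes (filled points, with exact Poisson intervals that are mostly smaller than the points) and other barcodes (open points) of each library. Every filled point lies above every open point of its gene, from Alas2, at 33809 to 43171 against 12.8 to 63.2, to Tent5c.

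Erythroid transcription factors were rare. The 11 genes held 0.103%, 0.0650% and 0.0623% of non-globin UMIs, against 0.0159%, 0.0320% and 0.0307% in other barcodes. Only 3 of the 11 had enough UMIs, a minimum that counted red cell barcodes alone and so favours high ratios. All 3 were at least 2-fold higher than in other barcodes, as were 17.9% of the 1320 genes that met the same minimum. Lmo2, a bridging protein of the erythroid complex, supplied 283 of 391, 415 of 749 and 334 of 586 UMIs. Gata1 had 4, 6 and 6 UMIs, Klf1 2, 4 and 3, and Gfi1b none, for which a count of 0 allows up to 3. These defining factors of nucleated precursors were thus near 0, beside Alas2 counts of 14001, 38942 and 40609.

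As shares of non-globin UMIs, transcripts of the protein-making machinery were low and 1 RNA class was high. Gm42418 and AY036118, which overlap on chromosome 17 (build GRCm38, 39846958-39848788 and 39847113-39848035) on opposite strands at a ribosomal RNA repeat, together held 11.9%, 16.2% and 14.0% of non-globin UMIs, against 1.60%, 1.07% and 1.26% in other barcodes. Per barcode these 2 genes had 47.9, 34.1 and 34.5 UMIs, fewer than the 77.2, 50.7 and 67.2 in other barcodes. The sources used here do not state how overlapping genes were counted, so their split is uncertain. Ribosomal protein genes held 6.50%, 10.4% and 11.4%, against 37.4%, 25.8% and 29.4%, and mitochondrial genes 2.38%, 1.96% and 2.65%, against 5.44%, 2.93% and 4.62%. The 10 genes with the lowest ratio to other barcodes were Malat1, Ltb, Cyba, Cd74, Cebpz, Eno1, Il2rg, Tmsb10, Fyb and Ebf1, from -2.75 to -2.47 in median log2. Malat1, a nuclear long RNA, had 707, 2671 and 3113 CPM in red cell barcodes and 20743, 18089 and 20381 in other barcodes.

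Leukocyte genes (64 genes of T, B, NK, monocyte, neutrophil and plasma cells) made up 0.144% of non-globin UMIs in young (0.133 to 0.157), 1.41% in aged (1.39 to 1.43) and 1.33% in aged-GA red cell barcodes (1.31 to 1.36). This was 6.56%, 24.99% and 28.5% of their share in other barcodes of the same library. They came to 0.58, 2.97 and 3.29 UMIs per red cell barcode, and 56.6%, 7.88% and 8.499% of red cell barcodes had none. The most abundant in each library was Igkc, the kappa light chain of B cells, with 64, 2228 and 2266 UMIs. In young red cell barcodes 15 of the 64 genes were at 0, in aged none and in aged-GA 2. Platelet genes had 0, 73 and 80 UMIs, with Pf4 leading at 32 and 33, and their share was 0.954 and 1.16 times that of other barcodes in aged and aged-GA mice.

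All 6 leukocyte lists held smaller shares in red cell than in other barcodes of each library. In aged red cell barcodes the T cell list stood at 29.4%, B at 24.2%, NK at 31.4%, monocyte at 26.3%, neutrophil at 22.7% and plasma cell at 30.9% of its share in other barcodes. In aged-GA mice the same values were 31.4%, 26.1%, 34.1%, 33.8%, 29.7% and 32.5%, and in young mice they ran from 4.90% for B cells to 11.8% for neutrophils. The intervals of some lists did not overlap, as for neutrophil genes (ratio 0.227, 0.221 to 0.234) and NK genes (ratio 0.314, 0.297 to 0.333) in aged mice. Over the 64 genes, levels in red cell barcodes ranked like those in other barcodes of their own library (Spearman's rho 0.947, 0.979 and 0.979) and less like those of other libraries (0.605 to 0.925). The points share a library and its depth, so this is a description.

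UMIs of red cell genes were more numerous in deeper barcodes of every library, while those of leukocyte genes varied less. In aged mice, red cell barcodes of 2000 to 4000, 4000 to 6000, 6000 to 8000 and 8000 or more UMIs had 2.91, 2.98, 3.04 and 2.92 leukocyte UMIs each, and 29.5, 55.9, 93.7 and 129 UMIs of red cell genes. Aged-GA barcodes had 3.45, 3.46, 3.17 and 2.74 leukocyte UMIs and 28.3, 64.1, 113 and 156 red cell UMIs in the same bins, and 249 barcodes under 2000 UMIs had 2.91 and 14.5. In young mice the leukocyte values were 0.397, 0.453, 0.596 and 0.633, higher in the deeper bins, and the red cell values 77.3, 117, 139 and 210. The source of the leukocyte UMIs was not tested.

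**Figure D5:**
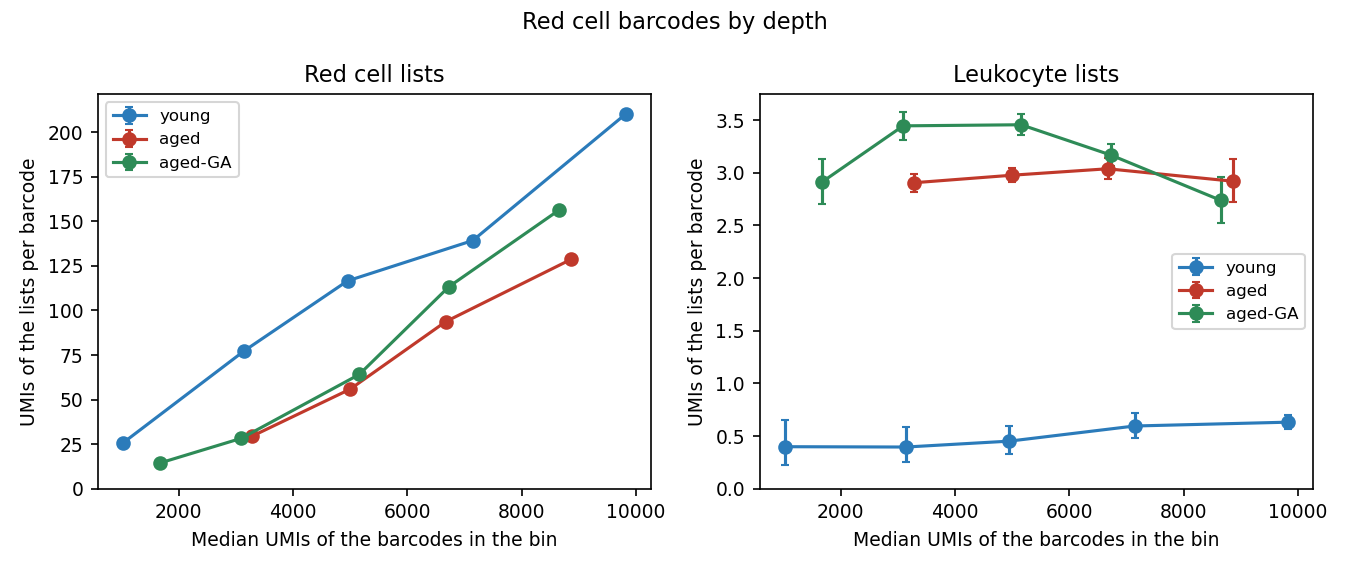
UMIs of the red cell lists (left) and leukocyte lists (right) per red cell barcode (y axes), by the median UMIs of the barcodes in bins of depth (x axis), for each library, with exact Poisson intervals and without 1 bin of 2 barcodes. The red cell values are higher in deeper bins, from 29.5 to 129 in aged mice, and the leukocyte values of aged mice stay between 2.91 and 3.04.

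To describe how red cell barcodes differed with age, summed UMIs of aged and young mice were set side by side for the 840 genes with at least 100 UMIs over both, as log2 ratios with 10 CPM added. The young library supplied 941 barcodes and the aged library 5460, at medians of 8636 and 4955 UMIs. The 27 leukocyte genes with enough UMIs stood higher in aged mice, and 46 of 57 red cell genes stood lower, as did 308 of all 840 genes. Of all 840 genes, 41.7% were past 2-fold, 35.6% higher and 6.07% lower, around a median of 0.40. Of 27 leukocyte genes, 25 were at least 2-fold higher and 0 lower, with a median of 2.95. None of the 27 had 100 UMIs in young mice, so they passed the minimum mainly through the aged library, which by itself favours high ratios. Only 303 of all 840 genes had 100 UMIs in young mice, so the split of all genes has this limit too. Thinned to 500 UMIs, 58.0% of the genes past 2-fold were higher, around a median of -0.09 for 190 genes. With no minimum, 63 of the 64 leukocyte genes had a higher CPM in aged mice, but so did 10092 of all 11574 genes with a UMI in either library (87.2%), so this count says little of the leukocyte genes. Of 57 red cell genes, 1 was at least 2-fold higher and 11 lower, with a median of -0.55. By list, 0 of 3 haem, 0 of 6 iron, 2 of 7 membrane, 1 of 3 transcription factor, 4 of 17 clearance and 4 of 21 metabolism genes were at least 2-fold lower. All tested B cell (11), NK cell (3), monocyte (5), neutrophil (4) and plasma cell (2) genes were at least 2-fold higher, and 0 of 2 T cell genes were. Per 1000000 UMIs with globin included, the median of all genes was 0.15, 260 were higher and 94 lower, and 20 red cell genes were lower and 1 higher.

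Lyz2, lysozyme of monocytes and neutrophils, had the largest ratio, with 2 UMIs in young and 1721 in aged mice (ratio 282, interval 78.0 to 2333). The neutrophil genes S100a9, with 10 and 1857 UMIs, and S100a8, with 14 and 1487, and Retnlg, with 1 and 380, followed, together with Igha, the heavy chain of IgA, with 1 and 411. In other barcodes of the same libraries Lyz2 had 87.8 CPM in young and 5671 in aged mice, and S100a9 249 and 6419, so the same genes stood higher there. Igkc (log2 ratio 3.44) and Tmsb4x, a general leukocyte transcript (3.19), were among the others.

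The 5 lowest were Irf7, an interferon regulatory factor (-1.86), the ferritin pseudogene Ftl1-ps1 (-1.82), Acp1, a small tyrosine phosphatase (-1.67), Hsp90aa1, a heat shock protein (-1.65), and Car2 (-1.60). With fewer than 100 genes per barcode, Irf7 (0.42), Acp1 (2.34) and Hsp90aa1 (1.38) stood higher in aged mice instead, and Hsp90aa1 was at 0.0719 in barcodes of 6000 to 8000 UMIs. The minimum of UMIs was not applied to these values. Only 193 young barcodes had fewer than 100 genes, so the change of direction is uncertain. Reads of Ftl1-ps1 may be shared with Ftl1, so its value is uncertain. The 11 red cell genes at least 2-fold lower included Acp1, Car2, Nt5c3, Bpgm, Fbxo9, Ubb, Trim10, Bsg, Ube2b and Lmo2. Bpgm had a log2 ratio of -1.37 and Ubb of -1.29, whereas Alas2 had -0.13, Ube2l6 -0.07 and Tent5c 0.40. Btg2, the only red cell list gene at least 2-fold higher, is an antiproliferative gene that leukocytes also express, and had 10 and 120 UMIs.

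Depth and leukocyte content differed between these libraries, so barcodes of 6000 to 8000 UMIs alone were also compared. Within this band red cell genes were 40.6%, 32.4% and 35.2% of non-globin UMIs, and leukocyte genes 0.174%, 1.05% and 0.985%. Of 321 genes with enough UMIs there, 53 were past 2-fold in the band, 40 higher and 13 lower, and 93 of the same genes were past it over all red cell barcodes. In the band 10 of 10 leukocyte genes with enough UMIs were higher, with a median of 2.98 and the same limit from the minimum. Of 48 red cell genes 3 were lower and 0 higher, with a median of -0.24, and the lower ones were a share near that of all genes. In this band, chosen after seeing the data, the red cell gene share was again highest in young mice. Thinned to 500 UMIs it was 38.9%, 26.9% and 26.5%, so young mice were highest there too, while the order of aged and aged-GA mice differed between these settings.

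Red cell barcodes of aged-GA and aged mice were much closer. Of 1237 genes, 2.02% were past 2-fold, 0.566% higher and 1.46% lower, around a median of 0.01. Of 59 red cell genes 0 passed 2-fold, and their median was -0.09. Alas2 had a log2 ratio of 0.35 and Bpgm of 0.41, while Epb41 had -0.56, Gpx1 -0.52 and Slc4a1 -0.60. Per 1000000 UMIs with globin included the median of all genes was 0.19, with 21 higher and 11 lower in place of 7 and 18, and the red cell median was 0.10, so its direction depends on the scale.

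Of 38 leukocyte genes 1 was at least 2-fold higher and 6 lower, with a median of 0.29, and the lower ones were mostly monocyte genes. Of 7 monocyte genes, 5 were at least 2-fold lower and 0 higher, with a median of -1.07, and 3 of 7 were so with globin included in the total. The minimum of UMIs over both libraries lets genes pass through the aged library alone. With no minimum, all 12 monocyte genes summed to 0.289% of non-globin UMIs in aged mice (0.280 to 0.299) and 0.104% in aged-GA mice (0.0974 to 0.110). Lgals3, galectin 3, had 216 UMIs in aged and 37 in aged-GA mice (log2 ratio -2.001), Lyz2 1721 and 395 (-1.81) and Fcer1g, an Fc receptor chain, 529 and 151 (-1.46). Alox5ap, of leukotriene synthesis (-1.51), and mt-Atp8, a mitochondrial subunit of ATP synthase (-1.46), completed the 5 lowest. In other barcodes of the same libraries Lyz2 had 5671 and 1144 CPM. The 5 highest were Ctla2a (75 and 169 UMIs, log2 ratio 1.34), Mthfd2, a mitochondrial folate enzyme (98 and 207, 1.27), Swt1 (1.22), Cd2, a T and NK cell adhesion receptor (40 and 82, 1.12), and Gramd3 (1.07). All 13 B cell genes had ratios above 0, with a median of 0.38 and none past 2-fold, where 633 of all 1237 genes had ratios above 0, or 892 with globin included in the total. Of 6 T cell genes 1, Il7r (1.01), was past 2-fold.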

How the data were processed

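The values are whole-number counts, 1 matrix of genes by barcodes for each library, which the authors made with Cell Ranger and deposited without scaling. The matrix header names version 5.0.0, the methods name another version, and the submitters' processing notes name mm10. All 3 matrices were used, with 32285 genes. The methods of the study keep barcodes of at least 200 genes, so none of the barcodes described here would enter its cells. Genes were placed with GENCODE M21 (GRCm38), which held 32158 of the gene IDs, and promoters were taken from RefSeq.

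UMIs were summed over the red cell barcodes of each library and given per 1000000 non-globin UMIs (CPM). Ratios are on the log2 scale after adding a pseudocount of 10 CPM to both sides. Genes with 100 or more UMIs over the libraries compared were used, and a gene past 2-fold is called in that sense only. With globin included in the total, the pseudocount was scaled by the non-globin share. Intervals of 95% are exact binomial (Clopper-Pearson) for shares and exact Poisson for levels, and concern counting error alone. A count of 0 allows up to 3. Thinning drew 500 UMIs per barcode without replacement. Depth per library and per red cell barcode is given with the results. The scripts were tested on simulated data (Python 3.11.15, numpy 2.4.6, scipy 1.17.1).

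Genes named are those of the lists, the 15 most abundant per library, the 10 highest and 10 lowest against other barcodes and the 5 highest and lowest between libraries. For other barcodes the highest needed at least 100 UMIs and the lowest at least 100 CPM in other barcodes. The housekeeping list of 8 genes held 1.63%, 2.62% and 3.20% of non-globin UMIs. The members and lists were chosen with earlier results of these data known, and the interferon list and the bands of Hbb-bt after values were seen. Some genes that the rule names are not reported here. Ahsp of the metabolism list was not analysed here. Alternatives changed the limits on genes, globin and mitochondrial UMIs, the denominator, the depth, the pseudocount and the minimum of UMIs.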

Additional observations from a re-analysis of the deposited data

How the results depend on the processing

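Requiring fewer than 100 genes left 1.78%, 12.1% and 5.58% of barcodes, in the order young, aged and aged-GA, in the same order of libraries as before. With that limit, red cell genes held 33.6%, 23.5% and 23.8% of non-globin UMIs and leukocyte genes 0.260%, 1.82% and 1.62%. Above 90% globin, red cell genes held 42.7% in young and 30.3% in aged-GA mice. After thinning to 500 UMIs they held 38.9%, 26.9% and 26.5%, with aged slightly above aged-GA, and leukocyte genes held 1.56% in aged and 1.57% in aged-GA mice. Without mitochondrial and ribosomal protein genes, red cell genes held 46.5%, 32.6% and 34.9% and leukocyte genes 0.159%, 1.61% and 1.55%. At 6000 to 8000 UMIs, chosen after seeing the data, they held 40.6%, 32.4% and 35.2% and 0.174%, 1.05% and 0.985%. The causes of these shifts were not tested.

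Of the genes past 2-fold, aged over young, there were 350, against 68 under 100 genes, 50 thinned, 53 at 6000 to 8000 UMIs, 1950 with at least 20 UMIs and 2581 with no minimum, and the first 3 of these tested fewer genes (244, 190 and 321 against 840). The share higher among them was 85.4%, and 58.0% thinned, 75.5% at 6000 to 8000 UMIs, 96.2% with at least 20 UMIs, 96.7% with no minimum, 73.4% with globin included in the total and 98.5% relative to the UMIs of red cell genes, where the median of all genes was 0.91. Aged-GA over aged, 25 became 8 under 100 genes, 5 thinned and 9 at 6000 to 8000 UMIs. With a pseudocount of 1 CPM there were 41, with at least 20 UMIs 64 and with no minimum 69. In that order 294, 230, 452, 1237, 4975 and 12420 genes were tested, against 1237. Of these, 2.72%, 2.17%, 1.99%, 3.31%, 1.29% and 0.556% were past 2-fold, against 2.02%. Among those past 2-fold the share higher was 28.0%. It was 0% under 100 genes, 40% thinned, 11.1% at 6000 to 8000 UMIs and 65.6% with globin included in the total. Under 100 genes, Irf7 (0.42), Acp1 (2.34) and Hsp90aa1 (1.38) turned from lower to higher in aged mice, and at 6000 to 8000 UMIs Hsp90aa1 did (0.0719). These single-gene values had no minimum of UMIs in those settings, so they may rest on few counts. The limit on mitochondrial UMIs and leaving out shared barcodes moved no share or count beyond its interval or 1.5 times. No paired analysis was possible because each group had 1 library. Leaving out a replicate was not possible for the same reason. In young red cell barcodes, 546 UMIs of leukocyte genes limit what can be said of any single one.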

Other observations

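Red cell barcodes also carried transcripts of interferon-related genes, a list of 15 genes chosen after values were seen. These held 3.61%, 2.76% and 2.68% of non-globin UMIs in young, aged and aged-GA mice, against 0.0482%, 0.248% and 0.0918% in other barcodes and 1.39%, 0.475% and 0.834% in globin-rich barcodes of 200 or more genes. Ube2l6 and Isg20, which are also on the red cell lists, supplied most of these, with Isg20, an RNA exonuclease, at 9746, 6475 and 6626 CPM (per 1000000 non-globin UMIs). Rsad2 (viperin) had 5986, 3861 and 3026 CPM in red cell barcodes and 5.55, 31.2 and 19.1 in other barcodes. Isg15, the ubiquitin-like protein that Ube2l6 helps to attach, had 3051, 2013 and 1161, against 11.8, 62.2 and 19.9. Thinned to 500 UMIs, which include globin, Rsad2 was seen in 14.8%, 6.61% and 5.19% of red cell barcodes and in 13.8%, 9.99% and 10.5% of globin-rich barcodes of 200 or more genes, and Isg15 in 6.38%, 3.39% and 1.99% and in 12.1%, 5.41% and 5.70%. Except for Rsad2 in young mice, these thinned shares were lower in red cell than in globin-rich barcodes, whereas the share of the whole list was higher. Ube2l6, thinned, was seen in 28.5%, 23.8% and 28.9% of red cell barcodes and in 29.5%, 17.1% and 26.9% of globin-rich ones. Of 8 genes of the list with enough UMIs in red cell barcodes, a minimum that favours high ratios, 7 had a median log2 ratio to other barcodes above 0 and 1 below. Of all 1320 genes with enough UMIs, 360 had a ratio above 0. In all 3 libraries 5 of the 8 were at least 2-fold higher, as were 17.9% of the 1320. Bst2, with too few UMIs for this count, had 23.8, 28.7 and 20.2 CPM, against 96.9, 179 and 105 in other barcodes. Ifitm3 had 810, 835 and 425 CPM, against 35.7, 1669 and 357.

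Apart from red cell barcodes, 30, 6 and 40 barcodes had fewer than 200 genes and at most 50% globin. Their median depth was 600, 582 and 578 UMIs, and mitochondrial genes held 65.2%, 51.2% and 68.7% of their UMIs, against 0.119%, 0.0810% and 0.125% of the UMIs of red cell barcodes. Of all barcodes under 200 genes, 96.9%, 99.9% and 99.0% were red cell barcodes.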
